A study of Arabidopsis thaliana with 32 samples.

Results

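The 10 expansin genes described here are EXPA1, EXPA4, EXPA5, EXPA7, EXPA8, EXPA10, EXPA17, EXPA18, EXPB1 and EXPB3 of Arabidopsis thaliana. They were chosen by gene identifier, with earlier results of these data known, and every row of the deposited tables that held one was read. The shares of members called, set beside those of all loci below, are therefore descriptions and no test. The Arabidopsis expansin superfamily as listed here has 35 genes, so 25 other members served for comparison. The deposited tables held 5064 gene identifiers in all, and 6 of the 10 expansins were among them.

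The roots came from 2 genotypes, Sku6 and the wild-type accession Col-0. Sku6 is a skewing line altered in SPIRAL1 (SPR1), a gene for a microtubule-associated protein. Each genotype was grown in flight on the International Space Station or as a ground control, and was sampled at 8 days or at 4 days. The 8 groups were therefore Sku6 in flight, Sku6 on the ground, Col-0 in flight and Col-0 on the ground, each at 8 days and at 4 days, with 4 samples per group and 32 samples in all. All seedlings were grown in the light on plates in the Veggie plant growth unit and fixed in RNAlater, and the ground set ran with a delay of 48 h. A sample pooled 5 to 8 whole roots at 4 days and 2 to 3 whole roots at 8 days, per the labels' protocols. Its library was made from 10 ng of RNA with an ultra-low-input kit that amplifies full-length cDNA. Pool size thus differed with age, and flight cannot be told apart from the delay of the ground set.

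Expansins are small secreted proteins that let plant cell walls yield to turgor without cutting wall polysaccharides. They act best at acid pH, which plasma membrane proton pumps maintain in the wall, and they are encoded by the alpha (EXPA) and beta (EXPB) families and by expansin-like genes (EXLA, EXLB), for which wall loosening has not been shown. In roots they are known from the elongation zone, from emerging lateral roots and from root hairs. EXPA7 and EXPA18 are the root hair expansins, EXPA1 and EXPA17 have been tied to lateral root formation, EXPA10 to leaf growth, and EXPA5 to growth that responds to brassinosteroids.

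The sequences before the gene starts are given for 5 of the 10 members. EXPA4 and EXPB3 are shown as the members listed most often, EXPA10 as a listed member with an auxin response element, and EXPA18 and EXPA7 as the root hair pair. Each run is the 250 bases before the annotated gene start, 5′ to 3′ on the gene's own strand, from the RefSeq TAIR10.1 assembly. Capitals mark matches to the motifs searched, and bases in lower case matched none of them.
EXPA4 (chr2:16545747-16545996, minus strand): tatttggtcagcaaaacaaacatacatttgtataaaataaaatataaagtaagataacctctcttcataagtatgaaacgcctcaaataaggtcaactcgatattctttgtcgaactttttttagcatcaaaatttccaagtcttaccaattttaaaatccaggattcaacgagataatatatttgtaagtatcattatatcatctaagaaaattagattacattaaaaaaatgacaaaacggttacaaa
EXPB3 (chr4:14002125-14002374, minus strand): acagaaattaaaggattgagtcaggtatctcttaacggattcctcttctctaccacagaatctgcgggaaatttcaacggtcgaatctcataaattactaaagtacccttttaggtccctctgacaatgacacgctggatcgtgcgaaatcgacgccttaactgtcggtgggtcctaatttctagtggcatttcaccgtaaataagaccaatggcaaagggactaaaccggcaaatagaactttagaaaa
EXPA10 (chr1:9259182-9259431, plus strand): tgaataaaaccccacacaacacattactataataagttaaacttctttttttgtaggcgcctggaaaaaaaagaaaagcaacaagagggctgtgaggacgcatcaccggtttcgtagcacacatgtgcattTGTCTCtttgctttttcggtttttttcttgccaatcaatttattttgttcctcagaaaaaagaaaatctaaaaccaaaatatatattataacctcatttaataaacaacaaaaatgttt
EXPA18 (chr1:23331313-23331562, plus strand): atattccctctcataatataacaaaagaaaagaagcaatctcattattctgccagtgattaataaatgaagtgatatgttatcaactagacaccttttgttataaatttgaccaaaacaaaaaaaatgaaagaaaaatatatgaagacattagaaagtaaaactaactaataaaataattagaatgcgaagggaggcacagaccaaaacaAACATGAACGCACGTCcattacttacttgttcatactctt
EXPA7 (chr1:4276255-4276504, plus strand): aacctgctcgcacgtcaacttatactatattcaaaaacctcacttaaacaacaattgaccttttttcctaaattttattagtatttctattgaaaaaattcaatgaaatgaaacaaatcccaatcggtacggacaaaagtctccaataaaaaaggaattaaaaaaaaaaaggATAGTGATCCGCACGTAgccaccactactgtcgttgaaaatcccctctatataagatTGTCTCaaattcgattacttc

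The capitals in EXPA18 and the longer run of capitals in EXPA7 are matches to the root hair element, a motif described in promoters of root hair genes. The match in EXPA18 lay 40 to 25 bases before the start and that in EXPA7 lay 78 to 62 bases before it. No other member and 0 of the 25 other expansins held a match, and 0.754% of 27443 Arabidopsis promoter windows of the same length did. EXPA7 and EXPA18 are root hair genes and the motif was described in such promoters, so their matches are not an independent finding. The letters TGTCTC, the core of the auxin response element, were found in EXPA10 119 to 114 bases before the start, in EXPA7 21 to 16 bases before it, and at 2 places in EXPA5, which began 149 and 94 bases before its start. Of all windows 10.9% held TGTCTC on either strand, and EXPA6 was the only one of the 25 other expansins with a match. The G-box CACGTG was in none of the 10 members' windows, in the window of EXPB2 among the other expansins, and in 6.49% of all windows. The windows of EXPA4 and EXPB3 held none of the 3 motifs. The motifs were searched on both strands, matches share no bases in these windows, and a match describes the letters and not a bound site.

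**Figure D1:**
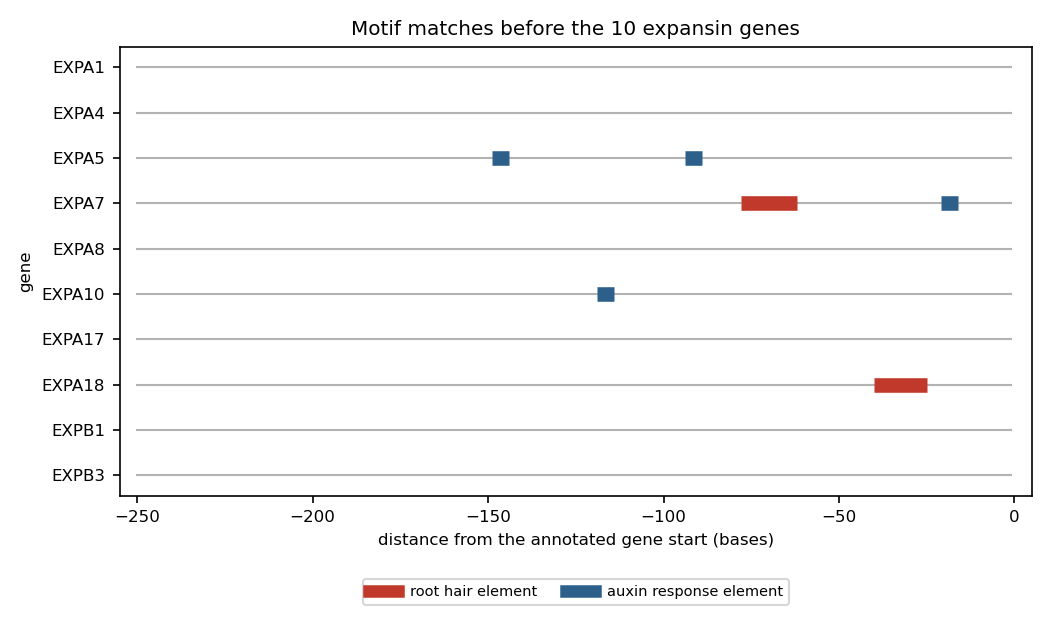
Motif matches in the 250 bases before the annotated start of each of the 10 expansin genes, 1 line per gene, with distance from the start in bases on the horizontal axis. Red bars are root hair elements, seen in EXPA7 and EXPA18, and blue bars are auxin response elements, seen in EXPA5, EXPA7 and EXPA10.

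The coding sequences were compared to show how close the relatives of each member are. The closest relative of EXPA4 among the 35 genes was EXPA16, with 80.2% identical coding bases, and EXPB3 was closest to EXPB1 at 76.0%. EXPA10 was closest to EXPA15 at 73.8%, and the root hair genes EXPA7 and EXPA18 shared 72.1%. EXPA8 was closest to EXPA2 at 70.5%, and EXPA1 to EXPA10 at 69.7%. EXPA18 overlaps the neighbouring gene AT1G62978 by 46 bases in the TAIR10.1 annotation, and EXPA7 overlaps AT1G12570 by 23 bases.

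The deposited data are 12 tables, each comparing 2 groups, with 1 level per group in FPKM, a fragment count scaled by transcript length and library size. Since length is taken into account, levels of different genes can be set side by side. Every listed locus had an authors' q-value (a p-value adjusted for the number of loci tested) of at most 0.05, and a locus that is not listed is not thereby shown to be unchanged. The authors tested 19464 to 20035 loci per table, a number recovered from how p- and q-values relate in each. No value per sample is in the tables, so no spread between replicates can be given, no test was added to the authors' own and the depth is unknown. Their smallest p-value was 5e-05 in every table, and 133 to 934 loci per table shared the q-value that it gave. SPR1 (AT2G03680), the gene altered in Sku6, had 7.21 to 13.0 FPKM in Sku6 groups against 1210 to 1422 FPKM in Col-0 groups in the authors' deposited tables. Of 12 root hair genes, RSL2, PRP1 and PRP3 were listed. All 3 shoot markers checked were also listed, LHCB1.3 at 79.7 to 169 FPKM and LHCB1.5 at 55.1 to 109 FPKM. RBCS1A, at 13.5 to 323 FPKM, had 2 entries with the same coordinates and different levels in 2 tables. The loci that the files give for SPR1, PRP1, PRP3, LHCB1.3 and LHCB1.5 extend well beyond the annotated gene, as does that of EXPA18, so reads from outside these genes could enter the levels printed for them. Because whole roots were measured, fewer cells of a type and less RNA per cell cannot be told apart.

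Of the 10 members, 6 were listed at least once, with 23 entries over the 12 tables. For scale, 5064 gene identifiers were listed at least once, where 19464 to 20035 loci were tested per table. Shares of all loci for each comparison are given below. Age accounted for 14 entries, 13 higher and 1 lower at 8 days than at 4 days. Flight accounted for 5 entries, all lower than ground, and genotype for 4, with 2 higher and 2 lower in Sku6. EXPA4 was listed in 8 tables, EXPB3 in 7, EXPA8 and EXPA10 in 3 each, and EXPA1 and EXPA18 in 1 each. EXPA5 (AT3G29030), EXPA7 (AT1G12560), EXPA17 (AT4G01630) and EXPB1 (AT2G20750) were listed in no table, and no level of theirs was in hand.

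EXPA4 (AT2G39700; TAIR10.1 chromosome 2, 16543832 to 16545746) had a level in all 8 groups. The authors' deposited tables gave at 8 days 420.1 FPKM for Sku6 in flight, 385 for Sku6 on the ground, 345 for Col-0 in flight and 447 for Col-0 on the ground, as medians over the tables that hold the group. At 4 days the deposited levels in the same order of groups were 229, 214, 216 and 292 FPKM. All 4 groups of 8 days lay above all 4 groups of 4 days, and within each age ground Col-0 was highest. The highest group was 2.09 times the lowest.

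EXPB3 (AT4G28250; TAIR10.1 chromosome 4, 13999625 to 14002124), a beta-expansin, stood at a like level. Its deposited levels at 8 days were 395 FPKM for Sku6 in flight, 427 for Sku6 on the ground, 413 for Col-0 in flight and 493 for Col-0 on the ground. At 4 days the deposited values were 218, 242, 226 and 353 FPKM in that order of groups. Again the 2 ages did not overlap and ground Col-0 was highest at each age, and the highest group was 2.26 times the lowest. Levels of 1 group taken from different tables differed by a factor of at most 1.04 for the members and other expansins. Neighbours in these orders, such as EXPA4 in Sku6 on the ground and Col-0 in flight at 4 days, cannot be ranked beyond a replicate spread that is not in hand.

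**Figure D2:**
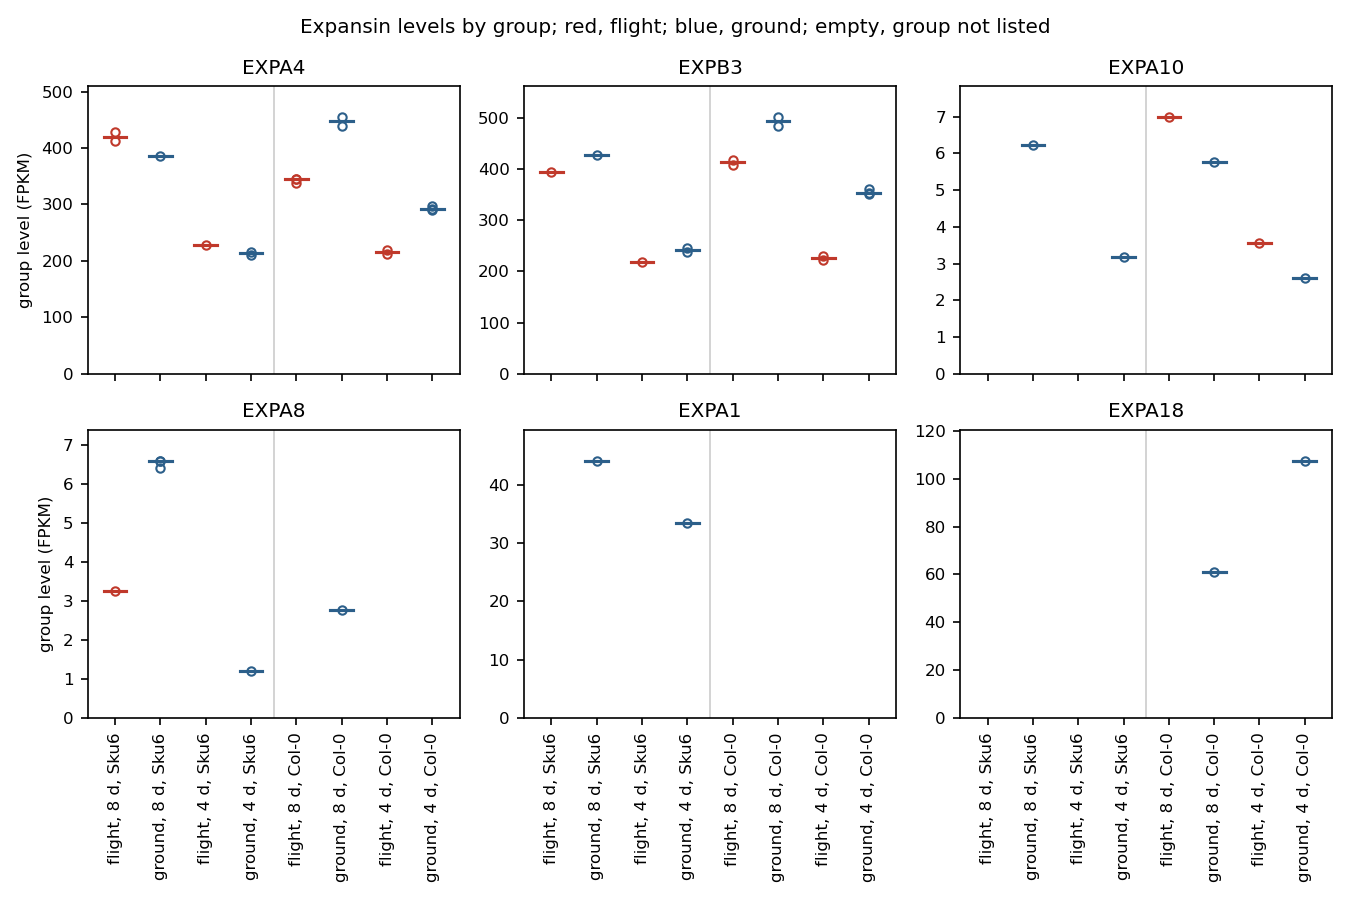
Deposited level in FPKM (linear axes from 0) of the 6 listed expansins in each group, flight in red and ground in blue, Sku6 left of the grey line and Col-0 right of it. Circles are single tables, bars the median over tables, and an empty place is a group in no table that lists the gene. The medians of EXPA4 and EXPB3 lie between 214 and 493 FPKM, with every 8-day group above every 4-day group.

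The comparison of 8 with 4 days asked which root transcripts differ with seedling age in each genotype and place. EXPA4 and EXPB3 rose in all 4 of these comparisons and EXPA10 in 3. EXPA8 and EXPA1 rose in ground Sku6, and EXPA18 fell in ground Col-0. For EXPA4 the authors' deposited tables gave 412 FPKM at 8 days against 229 at 4 days in flight Sku6, a 1.80-fold difference (log2 0.85, authors' q = 0.00133). In ground Sku6 the deposited levels were 385 at 8 days against 217 at 4 days, 1.78-fold (log2 0.83, q = 0.00120). The authors' table of flight Col-0 held 337 FPKM at 8 days against 220 at 4 days, 1.54-fold (log2 0.62, q = 0.00174), and that of ground Col-0 held 439.5 against 298, 1.47-fold (log2 0.56, q = 0.00107), again as deposited by the authors. The deposited ratios of EXPA4 were thus larger in both Sku6 tables than in both Col-0 tables, a difference between genotypes that was not tested.

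EXPB3 was likewise higher at 8 days in each setting. In the authors' deposited tables it had 395 FPKM at 8 days against 218 at 4 days in flight Sku6 (1.81-fold, log2 0.86, q = 0.00133) and 427 against 245 in ground Sku6 (1.74-fold, log2 0.80, q = 0.00120). The deposited values for flight Col-0 were 408 at 8 days against 230 at 4 days (1.78-fold, log2 0.83, q = 0.00174). In ground Col-0 the authors' deposited table had 484 against 361 FPKM, the smallest of the 4 ratios at 1.34-fold (log2 0.42, q = 0.00107). The ground Col-0 group of 4 days that enters this ratio was the highest of the 4-day groups.

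EXPA10 (AT1G26770; TAIR10.1 chromosome 1, 9259432 to 9261313) was a low transcript that was higher at 8 days in 3 of the 4 comparisons. The authors' deposited tables listed it at 6.23 FPKM at 8 days against 3.19 at 4 days in ground Sku6 (1.95-fold, log2 0.96, q = 0.0119). The deposited levels were 6.99 at 8 days against 3.55 at 4 days in flight Col-0 (1.97-fold, log2 0.98, q = 0.0135) and 5.76 against 2.62 in ground Col-0 (2.20-fold, log2 1.14, q = 0.00279). It was not listed for flight Sku6, for any comparison of flight with ground or for any comparison of the genotypes.

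EXPA8 (AT2G40610; TAIR10.1 chromosome 2, 16948791 to 16950705) had the largest ratio of any member entry. In ground Sku6 the authors' deposited table gave it 6.40 FPKM at 8 days against 1.20 at 4 days, 5.34-fold (log2 2.42, q = 0.00120). With 1 FPKM added to both levels the log2 value was 1.75, because the level at 4 days is low. EXPA1 (AT1G69530; TAIR10.1 chromosome 1, 26141726 to 26143538) had 44.2 FPKM at 8 days against 33.5 at 4 days in the authors' deposited table of ground Sku6 (1.32-fold, log2 0.40, q = 0.0408). EXPA18 (AT1G62980; TAIR10.1 chromosome 1, 23331563 to 23333246), a root hair expansin, was the only member listed as lower at 8 days. In ground Col-0 its deposited level in the authors' table was 60.9 FPKM at 8 days against 107.6 at 4 days (log2 −0.82, q = 0.0351). The locus that the files give for EXPA18, 23314987 to 23353535 on chromosome 1, is one of these wide loci and spans neighbouring genes.

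The members called with age were 5 of 10 higher in ground Sku6, where the authors called 4.77% of all tested loci higher and 4.67% lower. In flight Sku6, 2 of 10 were higher, against 3.92% of all loci higher and 4.43% lower. In flight Col-0, 3 of 10 were higher, against 3.33% higher and 3.45% lower over all loci. In ground Col-0, 3 of 10 were higher and 1 lower, against 5.69% higher and 5.54% lower over all loci. Shoot markers moved too: in the authors' deposited tables all 3 were lower at 8 days in both Sku6 comparisons, 2 of 3 in flight Col-0, and none was listed in ground Col-0. The part of shoot tissue in the age differences was not tested.

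The comparison of flight with ground asked which root transcripts differ in spaceflight at a given age and genotype. EXPA4 and EXPB3 were lower in flight in Col-0 at both ages, and EXPA8 was lower in flight in Sku6 at 8 days. No member was listed higher in flight. At 4 days in Col-0, EXPA4 had 212 FPKM in flight against 292 on the ground in the authors' deposited table (log2 −0.46, q = 0.00185), and EXPB3 had 221 in flight against 353 on the ground (log2 −0.67, q = 0.00185). At 8 days in Col-0 the deposited table gave EXPA4 346 FPKM in flight against 455 on the ground (log2 −0.40, q = 0.00263). EXPB3 had 418 in flight against 501.5 on the ground in the same deposited table (log2 −0.26, q = 0.0289), the smallest change of any member entry.

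In Sku6 neither gene was listed between flight and ground. The ratio of the flight to the ground level, taken across the authors' deposited tables, was 1.07 at 4 days and 1.09 at 8 days for EXPA4, and 0.902 and 0.924 for EXPB3. Whether the flight response differed between Sku6 and Col-0 was not tested. EXPA8 in Sku6 at 8 days had 3.25 FPKM in flight against 6.59 on the ground in the authors' deposited table (log2 −1.02, q = 0.0420). This was the highest q-value of the 23 member entries, and all levels of EXPA8 were low.

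Over all tested loci, the authors called 3.10% higher and 4.11% lower in flight in Col-0 at 4 days, where 2 of 10 members were lower. They called 1.26% higher and 2.80% lower in Col-0 at 8 days, again with 2 of 10 members lower. In Sku6 they called 2.18% higher and 2.28% lower at 4 days, with no member listed, and 1.08% higher and 1.43% lower at 8 days, with 1 of 10 members lower. All 3 shoot markers were also lower in flight in Col-0 at 8 days in the authors' deposited table, LHCB1.3 with 80.1 FPKM in flight against 169 on the ground, LHCB1.5 with 56.4 against 92.6 and RBCS1A with 134 against 224. RBCS1A was lower at 4 days too, with 200.2 FPKM in flight against 255 on the ground as deposited by the authors. No shoot marker was listed between flight and ground in Sku6. The part of shoot tissue in the lower EXPA4 and EXPB3 levels was not tested.

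The comparison of Sku6 with Col-0 asked which transcripts differ with the genotype. On the ground at 4 days EXPA4 had 211 FPKM in Sku6 against 289 in Col-0 in the authors' deposited table (log2 −0.46, q = 0.00409), and EXPB3 had 239 in Sku6 against 350.5 in Col-0 (log2 −0.55, q = 0.00409). In flight at 8 days the direction for EXPA4 was the opposite, with 428 FPKM in Sku6 against 345 in Col-0 as deposited by the authors (1.24-fold, log2 0.31, q = 0.00750). EXPA8 on the ground at 8 days had 6.59 FPKM in Sku6 against 2.76 in Col-0 in the authors' deposited table (2.39-fold, log2 1.25, q = 0.0152). No member was listed between the genotypes in flight at 4 days.

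The Col-0 ground group of 4 days enters both the flight comparison and the genotype comparison at that age, so these entries of EXPA4 and EXPB3 share its samples. Against that group of 292 FPKM, the other 4-day groups of EXPA4 lay between 214 and 229 FPKM. For EXPB3 they lay between 218 and 242, against 353 FPKM in ground Col-0. EXPA8 is tied together in the same way: ground Sku6 at 8 days enters all 3 of its entries, and was the highest of the 4 groups with a level.

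Over all tested loci, the authors called 1.45% higher and 1.48% lower in Sku6 on the ground at 4 days, where 2 of 10 members were lower, and 0.729% higher and 0.608% lower on the ground at 8 days, where 1 was higher. In flight they called 1.03% higher and 0.371% lower at 8 days, with 1 member higher, and 1.55% higher and 0.473% lower at 4 days. Shoot markers were listed in 2 genotype tables: 2 of 3 were higher in Sku6 in flight at 4 days and 2 of 3 lower in Sku6 on the ground at 8 days, in the authors' deposited tables. In that last comparison EXPA8 was higher in Sku6 while LHCB1.3 had 84.7 FPKM in Sku6 against 168 in Col-0, as deposited by the authors. The part of shoot tissue in the genotype differences was not tested.

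**Figure D3:**
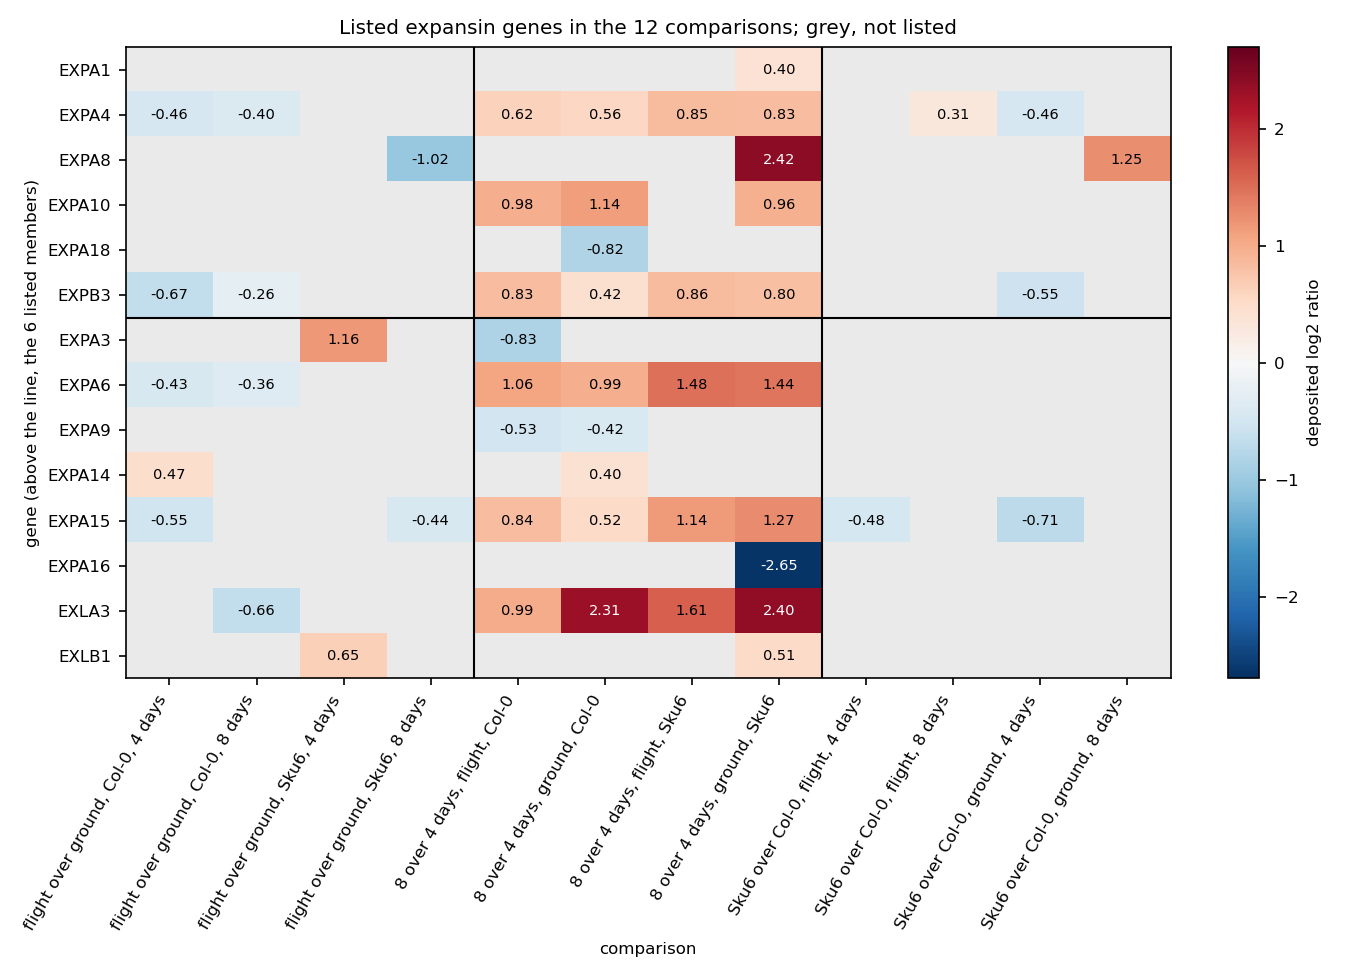
Deposited log2 ratio of each listed expansin in the 12 comparisons, with the 6 listed members above the line and 8 other expansins below it. Red is higher and blue lower in the group named first, and grey is not listed. All coloured cells in the 4 age columns are red for EXPA4, EXPA6, EXPA10, EXPA15, EXPB3 and EXLA3, and the coloured cells of the flight columns of Col-0 are blue except for EXPA14 at 4 days.

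Among the 25 other expansins 8 were listed, with 28 entries. Here too, 5064 gene identifiers were listed at least once, where 19464 to 20035 loci were tested per table. With age 14 entries were higher and 4 lower, and in flight 3 were higher and 5 lower. In Sku6 none was higher and 2 were lower. Per age comparison 12% to 16% of the 25 were higher and 0% to 8% lower. Over all tested loci these shares were 3.33% to 5.69% and 3.45% to 5.54%. Per flight comparison 0% to 8% were higher and 0% to 8% lower, against 1.08% to 3.10% and 1.43% to 4.11% of all loci. Between genotypes 0% were higher and 0% to 4% lower, against 0.729% to 1.55% and 0.371% to 1.48% of all loci. EXPA15, EXPA6 and EXLA3 rose with age in all 4 comparisons. EXPA15 was the nearest to EXPA4 and EXPB3 in level, with 292 FPKM at 8 days against 121 at 4 days in the authors' deposited table of ground Sku6 (log2 1.27). It was lower in flight in Col-0 at 4 days, 133 FPKM against 194 on the ground (log2 −0.55), and in Sku6 at 8 days, 222 in flight against 300.2 on the ground (log2 −0.44), in the authors' deposited tables. On the ground at 4 days it had 118 FPKM in Sku6 against 193 in Col-0 (log2 −0.71), and in flight at 4 days 95.2 against 133 (log2 −0.48), as the authors deposited them.

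EXPA6 had deposited age ratios of log2 1.48 in flight Sku6, 1.44 in ground Sku6, 1.06 in flight Col-0 and 0.99 in ground Col-0 in the authors' tables. In Col-0 it was lower in flight at 4 days (log2 −0.43) and at 8 days (log2 −0.36), by the authors' deposited tables. EXLA3, an expansin-like gene, had deposited age ratios of log2 2.40 in ground Sku6, 1.61 in flight Sku6, 2.31 in ground Col-0 and 0.99 in flight Col-0. In Col-0 at 8 days it had 7.10 FPKM in flight against 11.2 on the ground in the authors' deposited table (log2 −0.66).

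The others moved in fewer tables. EXPA9 fell with age in flight Col-0 (log2 −0.53) and ground Col-0 (log2 −0.42), by the authors' deposited tables. EXPA3 was lower at 8 days in flight Col-0 (log2 −0.83) and higher in flight in Sku6 at 4 days (log2 1.16), with 5.45 FPKM in flight against 2.43 on the ground as deposited by the authors. EXPA14, which is tied to lateral roots, was higher in flight in Col-0 at 4 days (log2 0.47) and higher at 8 days in ground Col-0 (log2 0.40), by the authors' deposited tables. EXLB1 was higher in flight in Sku6 at 4 days (log2 0.65) and at 8 days in ground Sku6 (log2 0.51), in the authors' deposited tables. EXPA16, the closest relative of EXPA4 in sequence, had 0.445 FPKM at 8 days against 2.79 at 4 days in ground Sku6 (log2 −2.65), as deposited by the authors. With 1 FPKM added to both levels the log2 value was −1.39, because both levels are low. EXPA4 was higher at 8 days in that comparison.

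Plasma membrane proton pumps acidify the wall in which expansins act. Of the 9 pump genes checked, AHA1 to AHA4 and AHA7 to AHA11, 1 was listed. AHA8 had 2.44 FPKM at 8 days against 1.39 at 4 days in the authors' deposited table of ground Col-0 (log2 0.81). This 1 gene made up 11.1% of the pump list, against 5.69% of all tested loci called higher there. Of 12 root hair genes other than the expansins, 3 were listed, and all 6 age entries were lower at 8 days. The share of these 12 genes called lower was 25% in ground Col-0, 16.7% in ground Sku6, 8.33% in flight Sku6 and 0% in flight Col-0. Of all tested loci 5.54%, 4.67%, 4.43% and 3.45% were called lower in that order. In ground Col-0, where EXPA18 fell, the authors' deposited table gave PRP3, a root hair wall protein, 74.7 FPKM at 8 days against 160.2 at 4 days. In the same deposited table PRP1, its relative, had 15.1 at 8 days against 30.1 at 4 days. RSL2, a transcription factor of root hair growth, had 6.61 at 8 days against 11.2 at 4 days there. EXPA18 was not listed with age in the other 3 comparisons, and root hair genes were listed in both Sku6 ones. In ground Sku6 the authors' deposited table gave PRP3 80.8 FPKM at 8 days against 122 at 4 days and RSL2 7.97 against 12.3. RSL2 was also lower in flight Sku6, at 7.42 FPKM at 8 days against 12.4 at 4 days in the authors' deposited table, and no root hair gene was listed with age in flight Col-0. PRP1 alone was listed for flight, with 42.4 FPKM in flight against 15.6 on the ground in the authors' deposited table of Col-0 at 8 days (log2 1.44), while EXPA7 and EXPA18 were not listed there.

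EXPA4 and EXPB3 stood high in level and low to middling in size of change among the loci called in the same tables. In the 4 age comparisons, 85.3% to 94.1% of called loci had a level in their higher group below that of EXPA4, and 34.5% to 54.4% had a smaller absolute log2 ratio. EXPA8 in ground Sku6 with age was the reverse, at the 13.3 percentile of level and the 94.1 percentile of absolute log2 ratio. All 8 entries of EXPA4 and 6 of the 7 of EXPB3 had the smallest q-value of their table, which 133 to 934 loci per table shared.

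**Figure D4:**
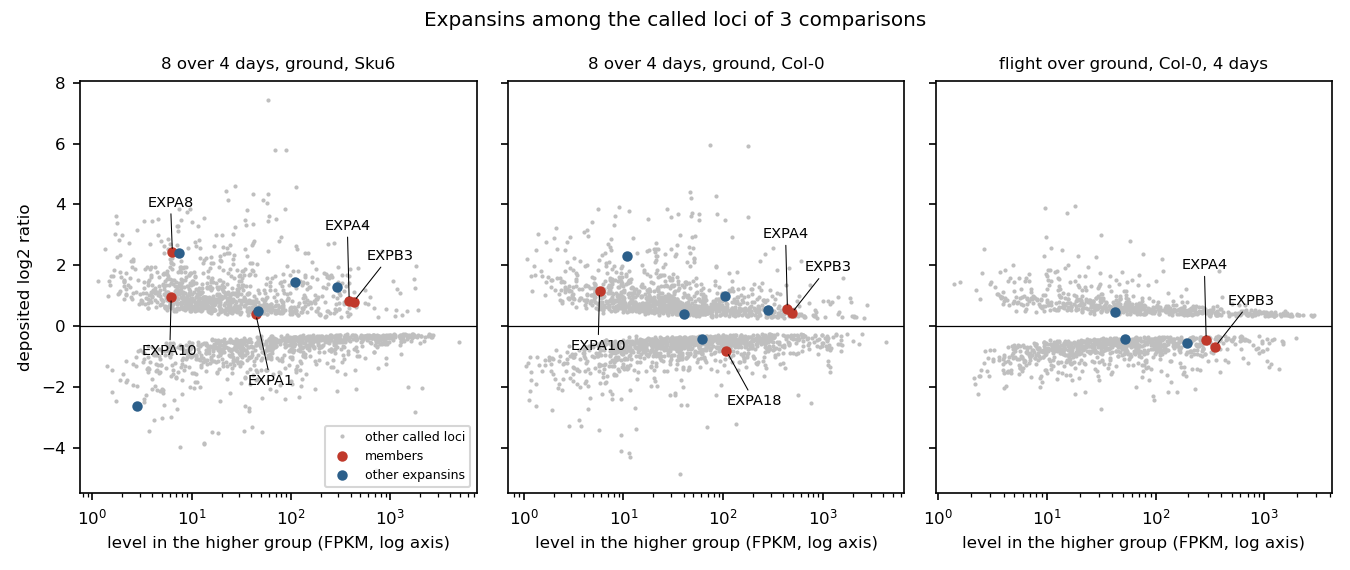
Deposited log2 ratio against the level of the higher group in FPKM (log axis) for all called loci of 3 comparisons, with members in red and other expansins in blue. EXPA4 and EXPB3 lie at the right, at levels of at least 292 FPKM and within 1 log2 unit of 0, and EXPA8 and EXPA10 at the left.

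Only 1 gene was listed in exactly the same 7 tables as EXPB3, in no other, and with the same signs. It was PAP2 (AT4G29080), an Aux/IAA gene of auxin signalling. EXPA4 was also listed in these 7 tables with the same signs, and was left out because it had a further table. The deposited log2 ratios of PAP2 differed from those of EXPB3 by 0.295 on average over these tables, which share groups among themselves. The only gene with exactly the same 8 tables and signs as EXPA4 was AT2G01610. The mean difference there was 1.56 on the log2 scale, so the sizes of its changes were not close.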

How the data were processed

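RNA from 32 root samples in 8 groups of 4 was sequenced by the authors. The submitters' processing notes name Cuffdiff, Cufflinks, Picard, STAR 2.5.1b, Trimmomatic 0.36 and FastQC 0.11.2 and the build TAIR10, without order; their settings were not stated. Per the file headers, the 12 deposited tables give FPKM per group, the log2 ratio of the groups and, for each locus, a p-value with its q-value, which was at most 0.05 throughout. FPKM holds no depth and no value per sample, so precision is unknown. The samples were pools of roots, so the authors' p-values concern differences between groups of pools. They do not give the spread between pools.

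Entries were read by gene identifier, and signs were set to flight over ground, Sku6 over Col-0 and 8 over 4 days, checked against both levels. Levels are medians over up to 3 tables, which were scaled separately. The number of loci tested was worked back from Benjamini-Hochberg adjustment and checked on simulated data. Of 4404 identifiers of single-gene entries, 4394 were in the TAIR10.1 annotation and all 4394 overlapped their gene; 1 was added to the files' 0-based starts. Promoter windows of 250 bases and coding identities were computed from that RefSeq assembly with Python 3.11.15 and Biopython 1.88. Named genes were all members, every listed other expansin and up to 4 proton pump and root hair genes per kind of comparison. For members in at least 4 tables, up to 3 genes with exactly the same tables and signs were named too. Members and lists were chosen with earlier results of these data known. Alternatives were a q-value of 0.01, an absolute log2 ratio of at least 1, merged loci left out, 1 FPKM added and another choice of table.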

Additional observations from a re-analysis of the deposited data

How the results depend on the processing

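No paired analysis was possible because the tables hold 1 value per group, and for the same reason no sample could be left out. With a q-value of at most 0.01, the members called between flight and ground were 3 in place of 5, those called with age 10 in place of 14, those called between genotypes 3 in place of 4 and the total 16 in place of 23. An absolute log2 ratio of at least 1 left 1 entry between flight and ground, 2 with age, 1 between genotypes and 4 in all. The shares of all loci at these 2 stricter settings were not computed, so whether members thinned out more than other loci is not known. No member entry was a row with several gene identifiers, so leaving out such rows was no test of these counts, and it does not cover the wide locus of EXPA18. Adding 1 FPKM to both levels, which cannot change a direction, shrank the log2 ratio of EXPA8 with age in ground Sku6 most among the 23 entries, by a factor of 1.38. Of the 30 group levels, 18 came from 1 table and could not move with the choice of table, and the other 12 moved from their median by a factor of at most 1.03. Depth and replicate spread are unknown, so the authors' q-values are the only measure of error. Values of the unlisted expansins were not in hand.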
